A study of Homo sapiens with 6 samples.

Results

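The genes described here are 47 drivers of the cell division cycle: the D, E, A and B cyclins, their kinases with the CDC25 phosphatases and WEE1, the E2F factors, the pocket proteins and MuvB subunits of the DREAM complex, MYBL2 and FOXM1, and the mitotic kinases, APC/C parts and spindle proteins. They were picked by symbol from the 53719 rows of a gene count table, and all 47 had a row. By textbook phase, 10 peak at G1/S, 21 peak at G2/M and 16 have no fixed phase. The study used H9, an established human embryonic stem cell line, grown in RSeT, a medium sold to hold a naive-type state. The knockdown group (3 libraries, a, b and c) received a gapmer, an antisense oligonucleotide that recruits RNase H, against the RNA of alpha satellite (ALR), the repeat of human centromeres. The control group (3 libraries, a, b and c) received a control gapmer. Both groups were collected 48 h after transfection, and all 6 libraries came from this single line. The labels do not say that the libraries came from separate cultures, so p-values measure only the spread between these libraries. The level of ALR itself was not analysed here, so the table gives no check of the knockdown.

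As background, the cyclin D kinases CDK4 and CDK6 phosphorylate the pocket protein RB1 and release E2F factors, which switch on genes of G1/S such as CCNE1, CDC25A and the E2F genes themselves. When p53 induces the kinase inhibitor p21 (CDKN1A), the pocket proteins RBL1 and RBL2 join E2F4 or E2F5 and the MuvB core (LIN9, LIN37, LIN52, LIN54 and RBBP4) into the DREAM complex. DREAM represses G1/S genes through E2F sites and G2/M genes through the CHR element, which LIN54 binds. In cycling cells the same MuvB core works with MYBL2 and FOXM1 to switch on the G2/M genes. Embryonic stem cells are known for a short G1 phase. G1/S and G2/M levels were therefore read side by side, as the readout of p53-DREAM repression.

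The promoter letters of the members show the split between these classes, and the windows below are of genes named by the rule given with the data processing. The letters searched were TTTGAA or TTCGAA for the CHR element, CCAAT for the NF-Y box, and TTTCGCGC, TTTGGCGC, TTTCCCGC or TTTGCCGC for E2F. Both strands of the 250 bases before each RefSeq start (GRCh38.p14) were searched, and letters of different motifs shared a base in 1 member, MKI67 (CHR and CCAAT). Of the 47 members, 36 had a promoter in the RefSeq table. CHR letters stood in 11 of 17 G2/M promoters (64.7%), in 1 of 7 G1/S promoters (14.3%), in 2 of 12 promoters of no fixed phase (16.7%) and in 10.1% of the 11136 promoters of genes tested. E2F letters stood in 5 of 7 G1/S promoters (71.4%), 0 of 17 G2/M promoters, 1 of 12 of no fixed phase (8.33%) and 3.94% of the promoters of genes tested. CCAAT stood in 13 of 17 G2/M promoters (76.5%), 3 of 7 G1/S promoters (42.9%) and 34.3% of the promoters of genes tested. The 30-base windows run 5′ to 3′ on the strand of the gene, with the matched letters in capitals. Only those that touch no exon of their gene in GENCODE 29 are printed. This leaves out the CHR window of PLK1 and the E2F windows of E2F1 and LIN52. Windows of members not named by that rule, such as KIF11, ECT2 and RBL1, are not printed either. In TOP2A the CHR letters, and in E2F3 the E2F letters, lie on the opposite strand.
CDK1, CHR: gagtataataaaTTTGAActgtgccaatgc
CDC20, CHR: cgacggttggatTTTGAAggagccaatagg
TOP2A, CHR: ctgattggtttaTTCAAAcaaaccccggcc
MKI67, CHR: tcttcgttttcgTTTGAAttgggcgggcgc
FZR1, CHR: ttcctgtattgaTTTGAAtcgcgggagacg
LIN54, CHR: ggcccttgtgcgTTTGAAggttggcggggc
E2F3, CHR: atgcaaatatggTTTGAAaagccggcggga
E2F3, E2F: ttgaaaagccgGCGGGAAAtccgagtttcg
CDC25A, E2F: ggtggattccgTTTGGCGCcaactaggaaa
E2F2, E2F: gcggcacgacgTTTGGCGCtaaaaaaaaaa
The windows lie at chr10:60778158-60778187 (CDK1, plus strand), chr1:43358904-43358933 (CDC20, plus), chr17:40418030-40418059 (TOP2A, minus), chr10:128126435-128126464 (MKI67, minus) and chr19:3506073-3506102 (FZR1, plus). Those of LIN54 (chr4:83010906-83010935, minus), CDC25A (chr3:48188443-48188472, minus) and E2F2 (chr1:23531257-23531286, minus) follow. The E2F3 windows, at chr6:20401802-20401831 and chr6:20401815-20401844 on the plus strand, overlap, so that gene held letters of both classes close to its start. A match of letters is a description of the sequence only.

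**Figure D1:**
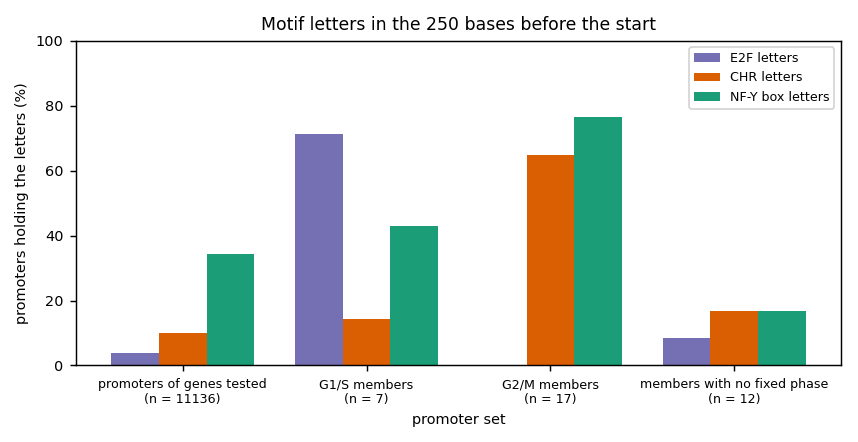
Share of promoters (y axis, percent) that hold E2F, CHR or NF-Y box letters in the 250 bases before the start, for the genes tested and for 3 classes of members (x axis, with the number of promoters). E2F letters stand in 71.4% of G1/S promoters and CHR letters in 64.7% of G2/M promoters.

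Total counts ran from 25087629 to 36576752 per library. Knockdown library a stood apart, with counts in 29678 rows against 25898 to 26788 in the other 5 libraries, so values without it are given for some results. Pluripotency markers summed to 4695 to 5316 CPM (read counts relative to each library's TMM-scaled total) in knockdown and 4742 to 4864 in control libraries, with 9 of 10 above 1 CPM and SOX2 listed at 0. The groups did not overlap for 3 of the 9 tested (33.3%, beside 18.9% of all genes), and 0 passed the test given below. POU5F1 (120 to 152 against 87.7 to 114 CPM) and LIN28A were higher after knockdown, and DPPA4 was lower. Of 10 naive-state markers, 8 were above 1 CPM on average (sums 85.5 to 95.1 and 85.0 to 90.9), but KLF17, a defining marker of the naive state, was at 0.0275 to 0.352 CPM. Most of the naive sums came from TFCP2L1 (23.9 to 32.1 CPM), DPPA3 (18.1 to 21.8), KLF4 (16.5 to 19.1) and NLRP7 (11.8 to 15.0). ARGFX (0.317 to 0.870 CPM), DPPA5 (0.808 to 1.23), DNMT3L (1.35 to 2.99) and SUSD2 (2.35 to 3.03) were low. Fibroblast markers were above 1 CPM for 5 of 10 (sums 95.2 to 105 and 97.0 to 110), with THY1 at 0, trophectoderm and amnion markers for 1 of 10 (4.03 to 5.66 and 4.02 to 4.29), and germ layer markers for 2 of 10 (4.76 to 6.72 and 4.63 to 5.17). Most of the fibroblast sums came from COL1A2 (60.7 to 80.9 CPM) and COL1A1 (18.8 to 24.8 CPM), while COL3A1, LUM and DCN were at most 0.387 CPM. The part of these levels in the results was not tested. CDK2, E2F8 and LIN37 were listed at 0 in all 6 libraries. So were 1862 of 18209 matched protein-coding rows, EEF1G among them, a translation factor that every cell uses. No level can be drawn from those rows, and 44 members were tested.

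The cell cycle drivers moved little after the knockdown, and only E2F3 and LIN52 passed the test, both lower. In edgeR's quasi-likelihood test, with p-values adjusted over all 19721 genes, 2 of the 44 members (4.55%) passed a threshold of 0.05, both lower and 0 higher. Over all genes tested 0.786% passed, 0.137% higher and 0.649% lower. The members were chosen with earlier results of these data known, so their shares are a description only. At an unadjusted p under 0.05 there were 9 members, 5 higher and 4 lower, which is 20.5% against 14.3% of all genes. The libraries of the groups did not overlap for 9 members, also 20.5%, against 18.9% of all genes, a share near the background. The median log2 fold change of the 44 members was 0.04, with 27 above 0, beside 0.02 over all genes, of which 54.4% were above 0. For 41 of 44 members the 95% interval of the log2 fold change lay within 0.5 of 0, and the exceptions were E2F3, LIN52 and CCNE2. A p that misses the threshold does not show that values did not differ, and these intervals give the sizes that remain possible. In bulk RNA, fewer cells in a phase and less RNA per cell cannot be told apart.

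**Figure D2:**
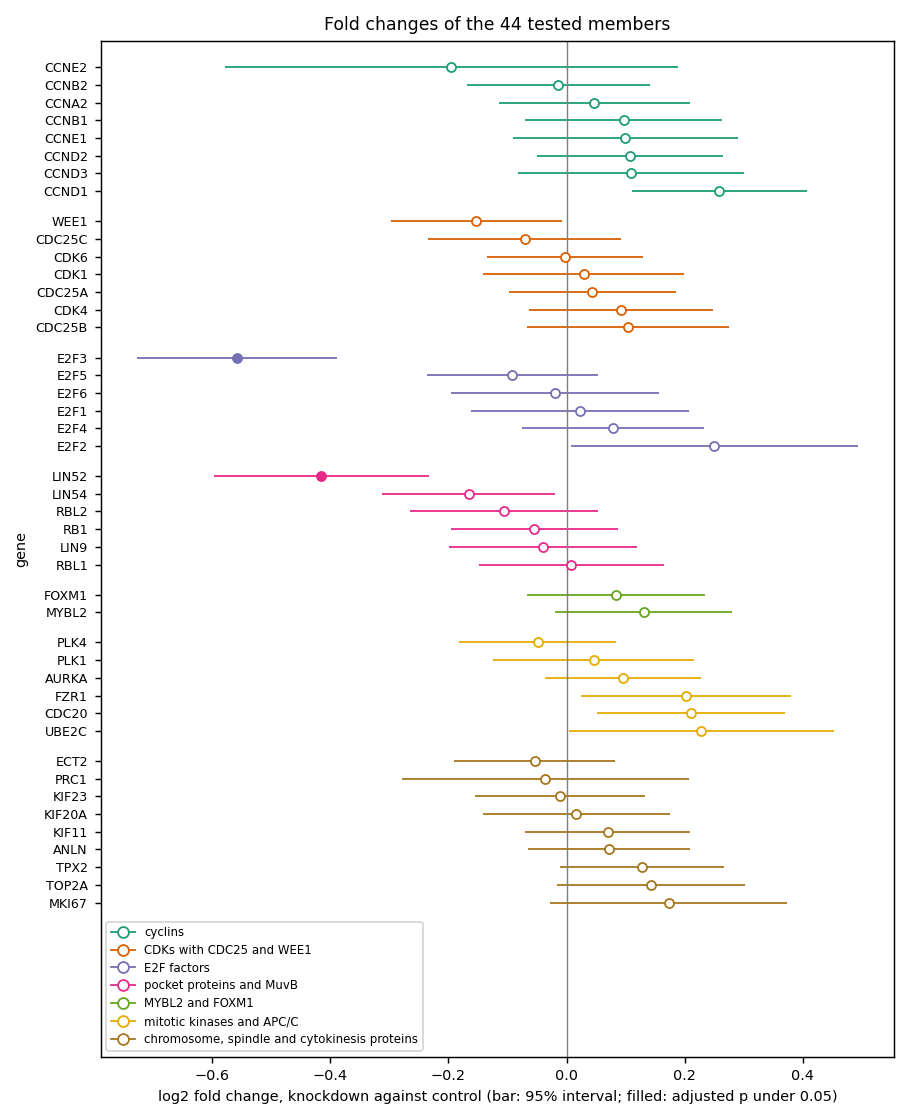
Log2 fold change of knockdown against control (x axis) with its 95% interval for the 44 tested members (y axis), coloured by role; filled points passed an adjusted p of 0.05. Only E2F3 (-0.56) and LIN52 (-0.42) are filled.

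Among the E2F factors, E2F3 fell and no other member passed the test. E2F3, an activator E2F that drives entry into S phase, was at 251, 241 and 247 CPM in the controls (in the order a, b, c, as below) and at 157, 157 and 188 CPM after knockdown. Every knockdown library lay below every control library, and knockdown c was nearest to the controls. The mean fell from 246 ± 5.185 to 167 ± 17.9 CPM (SD, n = 3), a drop of 32.1%. The log2 fold change was -0.56 ± 0.08 (SE; 95% interval -0.73 to -0.39; edgeR adjusted p = 0.00583). It rested on 4449 to 8964 reads per library, and by p it was gene 37 of 19721. With any single control library left out, edgeR's adjusted p was 0.0555 to 0.0939. E2F3 spans chr6:20401906-20493715 on the plus strand (ENSG00000112242.14, GENCODE 29). Its span holds the intronic transcript E2F3-IT1 and the small genes RN7SL128P and RNU6-141P, and there are 2 pseudogene copies. Reads shared with the same-strand E2F3-IT1 or with the copies cannot be told apart. Neither can those of RN7SL128P and RNU6-141P on the opposite strand, since the strand setting of the counting is not given in the sources used here.

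The other E2F genes did not pass. E2F2, another activator, was at 10.8, 12.2 and 10.5 CPM in control and 12.9, 14.9 and 11.95 CPM in knockdown libraries. Only control b and knockdown c crossed, and the log2 fold change was 0.25 ± 0.11 (SE; 95% interval 0.01 to 0.49; edgeR adjusted p = 0.338). E2F1, the best known activator, was at 50.8 to 52.8 CPM in control and 45.3 to 57.1 CPM in knockdown libraries, and its log2 fold change of 0.02 turned negative in some of the alternatives. E2F4 and E2F5, the E2F partners in DREAM, had log2 fold changes of 0.08 and -0.09, and the repressor E2F6 had -0.02. The interval of E2F3 did not overlap that of any other tested E2F, the lowest of which reached -0.24 (E2F5), but the differences themselves were not tested.

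Of the pocket proteins and MuvB subunits, LIN52 fell, and 5 of the 6 tested members had a fold change below 0. LIN52, the subunit whose phosphorylation ties MuvB to the pocket proteins, was at 61.6, 69.5 and 65.1 CPM in control and 45.4, 46.7 and 55.1 CPM in knockdown libraries. The groups did not overlap, and again knockdown c was the highest of the knockdown libraries. The mean fell from 65.4 ± 3.99 to 49.1 ± 5.27 CPM (SD, n = 3), by 25.0%. The log2 fold change was -0.42 ± 0.08 (SE; 95% interval -0.60 to -0.23; edgeR adjusted p = 0.0427). LIN52 spans chr14:74084796-74201235 on the plus strand (ENSG00000205659.10) and shares it with RN7SL530P and AC006349.1. This call sat close to the threshold: edgeR's adjusted p was 0.062 with scaling by library size alone and 0.0514 with upper-quartile scaling. It was 0.105 without knockdown library a, 0.161 without knockdown b, and 0.139 to 0.243 without any single control library.

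LIN54, the CHR-binding subunit, was at 49.0, 54.7 and 52.1 CPM in control and 47.1, 46.1 and 45.7 CPM in knockdown libraries. These values did not overlap, but the difference of -0.17 ± 0.07 (log2, SE) did not pass (edgeR adjusted p = 0.288). LIN54 holds the gene THAP9 on its opposite strand. RB1 was at 59.3 to 65.4 CPM in knockdown and 63.2 to 66.025 CPM in control libraries (log2 fold change -0.05). RBL1 (p107), at 0.01, RBL2 (p130), at -0.11, and LIN9, at -0.04, had log2 fold changes whose intervals all included 0. The role group had a median of -0.08.

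**Figure D3:**
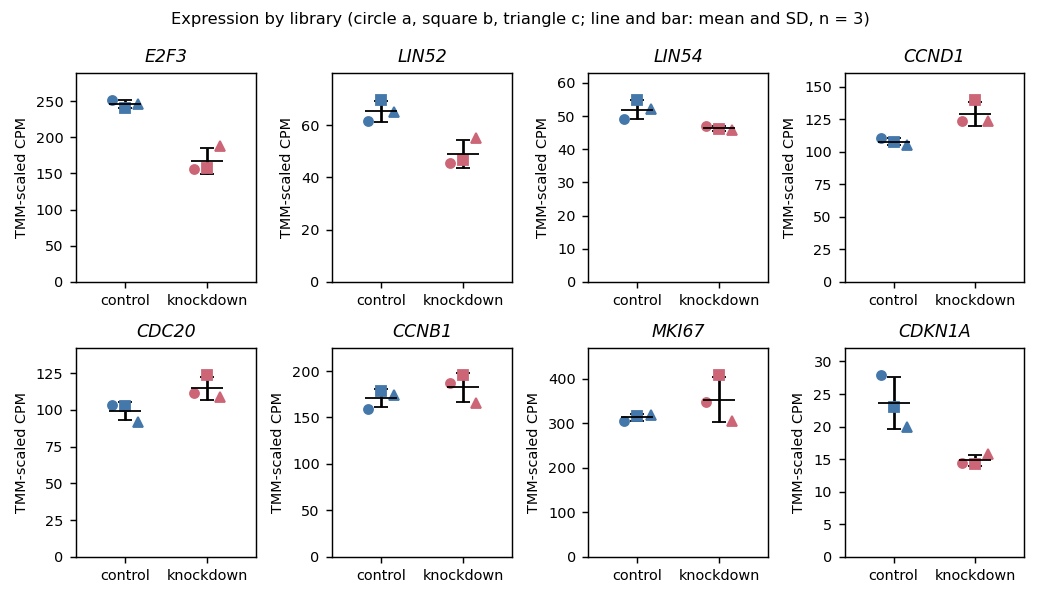
TMM-scaled CPM (y axis) by group (x axis) for 7 members and for CDKN1A; points are libraries a, b and c, and the line and bar are the mean and SD of 3 libraries. The knockdown libraries of E2F3, LIN52 and CDKN1A all lie below their controls, and those of CCNB1 and MKI67 overlap them.

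Of the 8 cyclins, 0 passed the test, 6 had fold changes above 0, and the median was 0.10 on the log2 scale. CCND1, the D cyclin that links growth signals to CDK4 and CDK6, was at 111, 107 and 105 CPM in control and 123, 139 and 124 CPM in knockdown libraries. All 3 knockdown libraries lay above the controls, and the log2 fold change of 0.26 ± 0.07 (SE; 95% interval 0.11 to 0.41) missed the threshold (edgeR adjusted p = 0.112). CCND1 overlaps LTO1 on the opposite strand. CCND2, another D cyclin, was at 266 to 295 CPM in control and 282 to 319 CPM in knockdown libraries (log2 fold change 0.11; edgeR adjusted p = 0.539), and CCND3 was at 15.1 to 17.96 CPM over all libraries (0.11).

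Cyclins of the later phases overlapped between groups. CCNE1, which starts S phase with CDK2, was at 26.7, 28.9 and 28.3 CPM in control and 30.4, 32.9 and 26.5 CPM in knockdown libraries (log2 fold change 0.10; edgeR adjusted p = 0.654). CCNE2, the least abundant member per length, had the widest interval, -0.58 to 0.19. CCNA2, the cyclin of S phase and G2, was at 131, 133 and 132 CPM in control and 143, 145 and 122 CPM in knockdown libraries (0.05; edgeR adjusted p = 0.822). Knockdown libraries a and b were above and c was below all controls. CCNB1, the cyclin that brings CDK1 into mitosis, was at 159, 178 and 174 CPM in control and 187, 195 and 165 CPM in knockdown libraries (0.10; edgeR adjusted p = 0.611), with knockdown c the lowest of its group, and CCNB2 had a log2 fold change of -0.01.

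No kinase or phosphatase of the cyclin-CDK switch passed the test, and 4 of the 7 tested had fold changes above 0 (median 0.03). CDK6, a partner of the D cyclins, was at 329 to 344 CPM in control and 337 to 339 CPM in knockdown libraries. Its log2 fold change was -0.003 with a 95% interval of -0.14 to 0.13. CDK1, the mitotic kinase, was at 62.8, 66.025 and 68.1 CPM in control and 73.8, 66.5 and 60.6 CPM in knockdown libraries, which thus held both the highest and the lowest value (0.03; edgeR adjusted p = 0.903). CDK4 had a log2 fold change of 0.09. WEE1, the kinase that holds CDK1 inactive, was at 144, 156 and 145 CPM in control and 133, 140 and 127 CPM in knockdown libraries. The groups did not overlap, and the log2 fold change was -0.15 ± 0.07 (SE; edgeR adjusted p = 0.325). The phosphatases that release this block had log2 fold changes of 0.04 (CDC25A), 0.10 (CDC25B) and -0.07 (CDC25C).

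MYBL2 and FOXM1, the factors that turn MuvB from repressor to activator, did not pass. MYBL2 was at 207.8, 206 and 194 CPM in control and 208.1, 238 and 220 CPM in knockdown libraries, with knockdown a barely above control a (log2 fold change 0.13 ± 0.07, SE; edgeR adjusted p = 0.42). FOXM1 was at 78.5, 82.2 and 74.6 CPM in control and 80.4, 88.7 and 80.0 CPM in knockdown libraries (0.08; edgeR adjusted p = 0.633). The FOXM1 groups overlapped through control b.

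The mitotic kinases and APC/C parts had the highest median of the roles, 0.15 on the log2 scale, with 5 of 6 above 0 and 0 called. CDC20, the activator of the APC/C in mitosis, was at 103, 102 and 92.0 CPM in control and 111, 124 and 109 CPM in knockdown libraries. The groups did not overlap (log2 fold change 0.21 ± 0.07, SE; 95% interval 0.05 to 0.37; edgeR adjusted p = 0.227). UBE2C, the ubiquitin-conjugating enzyme of the APC/C, was at 61.2, 52.0 and 47.6 CPM in control and 56.2, 70.8 and 60.9 CPM in knockdown libraries, which overlapped (0.23 ± 0.10, SE; edgeR adjusted p = 0.343). FZR1, the APC/C activator of G1, was at 35.1, 30.5 and 31.5 CPM in control and 34.5, 40.003 and 37.0 CPM in knockdown libraries (0.20 ± 0.08, SE; edgeR adjusted p = 0.287). UBE2C has 4 pseudogene copies, AURKA has 2 and CDC20 has 1, and reads they share could have been split. Such limits are not listed here for every member: MKI67 also has 1 copy, and CCNA2, FOXM1 and FZR1 overlap genes on the opposite strand. AURKA, a kinase of centrosome maturation, was at 73.8 to 77.8 CPM in control and 79.6 to 82.2 CPM in knockdown libraries, apart by a small step (0.09; edgeR adjusted p = 0.516). PLK1 (0.05) and PLK4 (-0.05), which act in mitotic entry and centriole duplication, overlapped.

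The proteins of chromosomes, spindle and cytokinesis had a median log2 fold change of 0.07, with 6 of 9 above 0 and 0 at an unadjusted p under 0.05. MKI67, the proliferation marker that coats mitotic chromosomes, was at 304, 317 and 319 CPM in control and 347, 407 and 305 CPM in knockdown libraries. Knockdown b was the highest library, while knockdown c lay at the level of the lowest control (0.17 ± 0.09, log2, SE; edgeR adjusted p = 0.427). The log2 fold change of MKI67 was 0.05 without knockdown b and 0.25 without knockdown c. TOP2A, which untangles sister chromatids, was at 296, 322 and 310 CPM in control and 345, 366 and 314 CPM in knockdown libraries (0.14; edgeR adjusted p = 0.402). TPX2, a spindle assembly factor, was at 196, 194 and 197 CPM in control and 219, 221 and 200 CPM in knockdown libraries, without overlap (0.13; edgeR adjusted p = 0.394). The kinesins KIF11 (0.07), KIF20A (0.02) and KIF23 (-0.01), and ANLN (0.07), PRC1 (-0.04) and ECT2 (-0.05), which act in spindle bipolarity and cytokinesis, had intervals that included 0.

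Levels per exon length (TPM computed from GENCODE 29 exon lengths, mean of 6 libraries) placed MYBL2 and G2/M genes at the top. MYBL2 was at 340, CCNB1 at 307, TPX2 at 253, CDC20 at 233, TOP2A at 225, CCNA2 at 214 and UBE2C at 201. E2F3 was number 6 of 44 in the controls and number 11 after knockdown. The lowest were CCND3 at 12.5, E2F2 at 9.95, PRC1 at 7.94 and CCNE2 at 6.42. CCNB1, at 300.3 ± 26.8 without and 314 ± 22.6 with the knockdown (SD, n = 3), differed by less than its spread, while E2F3 went from 214 ± 8.85 to 143 ± 17.0 on this scale.

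Read by phase, both classes sat near the median of all genes. The 8 tested G1/S members had a median log2 fold change of 0.03, with 6 above 0 and 1 called (E2F3, lower). The 21 G2/M members had a median of 0.07, ran from -0.07 to 0.23 and had 15 above 0 (71.4%) and 0 called. Over the class, the 95% intervals reached down to -0.28 (PRC1) and up to 0.45 (UBE2C). The pooled SD between libraries was 0.0772 for the G1/S median and 0.0638 for the G2/M median. The 15 tested members with no fixed phase had a median of -0.02, with 6 above 0 and 1 called (LIN52, lower). The G2/M median exceeded the G1/S median by 0.0362, and without knockdown library a this difference was -0.0018. Between single libraries its pooled SD was 0.0418, which is a spread of libraries and not the SE of a group difference.

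**Figure D4:**
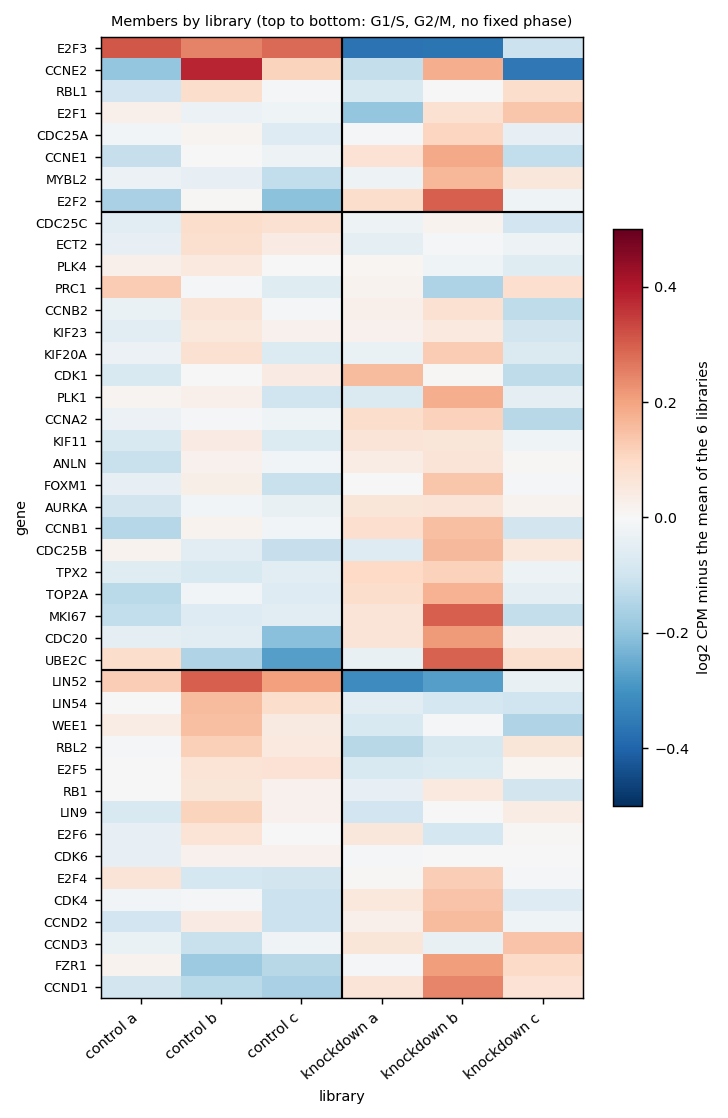
Log2 CPM of each tested member (y axis, grouped by phase) minus its mean over the 6 libraries (colour), for each library (x axis). E2F3 and LIN52 are low in all 3 knockdown columns, and knockdown b is the highest library for 14 of the 21 G2/M members.

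Single libraries set much of this pattern. Knockdown library b held the highest value of 23 of the 44 members and of 14 of the 21 G2/M members, while 24.2% of all genes tested were highest there. Without it, the log2 fold change was 0.05 for CCND2, 0.02 for CCNE1, 0.04 for CCNB1 and 0.08 for TOP2A. Without knockdown library c instead, these were 0.13, 0.16, 0.14 and 0.18, in the same order. Control library b held the highest value of 13 members, beside 15.5% of all genes. Knockdown library c held the lowest value of 12 members, 7 of them G2/M, beside 16.5% of all genes, and control library c that of 12, beside 15.9%. The mean G2/M minus the mean G1/S deviation was 0.11, 0.02 and 0.01 (a, b, c) after knockdown and -0.01, -0.08 and -0.05 in the controls, so the groups did not overlap. Without E2F3 it was 0.07, -0.04 and -0.002 in knockdown and 0.04, -0.06 and -0.004 in control libraries, and the groups overlapped. The separation of the groups was seen with E2F3, a single G1/S gene, included.

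**Figure D5:**
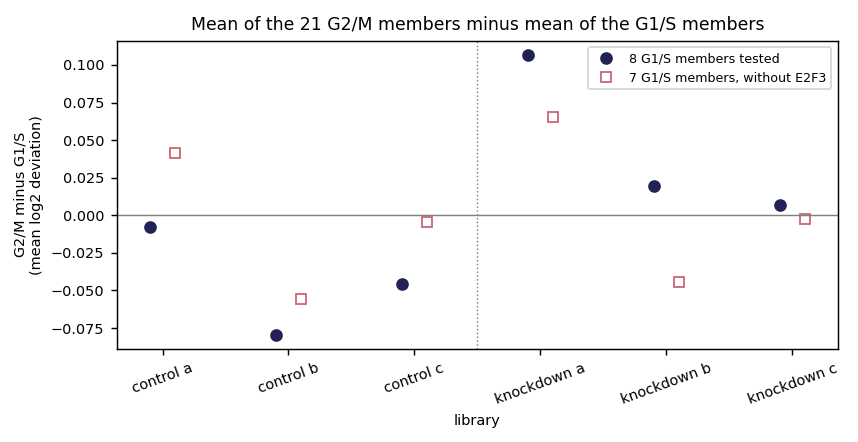
Mean log2 deviation of the 21 G2/M members minus that of the G1/S members (y axis) in each library (x axis), with all 8 tested G1/S members (filled) and without E2F3 (open). The filled points of knockdown lie above those of control, and the open points overlap.

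Other genes of the pathway were read from lists written with earlier results of these data known. CDKN1A, the p53 target that feeds DREAM, was at 27.9, 23.0 and 19.9 CPM in control and 14.5, 14.3 and 15.8 CPM in knockdown libraries. It fell, with no overlap, by 0.66 ± 0.12 on the log2 scale (SE; edgeR adjusted p = 0.024), and edgeR's adjusted p was 0.0528 without knockdown a, 0.0938 without knockdown b, 0.119 without control a and 0.114 without control b. Of 25 p53 targets, 23 were tested, 20 were below 0 and 6 were called lower: CDKN1A, MDM2 (-0.47), EDA2R (-0.70), TNFRSF10B (-0.41), ZMAT3 (-0.45) and PLK2 (-0.39). Over the 16 alternatives CDKN1A passed in 12, MDM2 and EDA2R in 14 each, TNFRSF10B and ZMAT3 in 12 each and PLK2 in 8. The 6 were 26.1% of the p53 targets tested, beside 0.649% of all genes called lower, and the groups did not overlap for 15 (65.2%), beside 18.9% of all genes. No p53 target was called higher, 3 of the 23 were above 0, and the median was -0.30. Among 25 tested core regulators outside the members, CDKN1A was called lower, 0 were called higher, and 17 were below 0 (median -0.02). CDKN1C (p57), another kinase inhibitor, had a difference of -0.45 (log2; edgeR adjusted p = 0.148). DINOL on the opposite strand of CDKN1A, and CPM, the gene of carboxypeptidase M, on that of MDM2, could share reads with them.

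No further replication or mitosis gene on the S phase and G2/M lists passed edgeR's test. Of 40 tested S phase genes 28 were above 0, with a median of 0.04, 0 called and 5 (12.5%) at an unadjusted p under 0.05, beside 14.3% of all genes. GINS2 (0.35; edgeR adjusted p = 0.107) and MCM2 (0.23; edgeR adjusted p = 0.159), parts of the replicative helicase, had the smallest p. Of 40 other G2/M genes 27 were above 0, with a median of 0.03, 0 called and 2 (5%) at an unadjusted p under 0.05, G2E3 (-0.17) and the tubulin gene TUBB4B (0.19). Members with CHR letters (14 tested) had a median log2 fold change of 0.04 and those without (21 tested) 0.02. Those with E2F letters (6 tested) had 0.02 and those without (29 tested) 0.05.

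Gene span moved with the fold change, as a description across genes, which share libraries and are not replicates. Over the 44 members Spearman's rho of span and log2 fold change was -0.38, over 42 without E2F3 and LIN52 it was -0.31, and over 15210 genes tested with a span it was -0.17. E2F3 spans 91.8 kb, LIN52 116 kb and LIN54 103 kb, against a median of 29.5 kb for the members and 19.97 kb for the G2/M members. Other long members had log2 fold changes near or above 0: RB1 (296 kb) had -0.05, CDK6 (232 kb) -0.003, RBL1 (99.6 kb) 0.01 and CCND3 (115 kb) 0.11. The median span was 116 kb for genes called lower (n = 103), 38.0 kb for genes called higher (n = 26) and 34.4 kb for all genes tested with a span. Each library's trend on span was then removed, over those 15210 genes. Log2 fold changes were then -0.57 for E2F3 (edgeR adjusted p = 0.00301) and -0.41 for LIN52 (edgeR adjusted p = 0.0311). In that fit 11 instead of 15 of the 21 G2/M members were above 0, but the median over all genes moved too, from 0.02 to -0.01. The G2/M median was 0.03 with the trend removed and 0.07 in the main fit.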

How the data were processed

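The deposited values are raw counts by gene symbol in 6 columns, 1 per library. The NEBNext Ultra II kit used, on total RNA, keeps strand, per the labels' protocols. Per the submitters' processing notes, Trimmomatic 0.39, STAR 2.7.8a, featureCounts, Subread 2.14.2 and hg38 were used; annotation, strand setting and multi-mapping rules are not given in the sources used here. Of the rows, 32300 had a count and 31464 symbols matched GENCODE 29.

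Counts were analysed in R 4.3.3 with edgeR 4.0.16: filterByExpr defaults (19721 genes, 99.9% of counts), TMM scaling, and the quasi-likelihood test with group as its only term, two-sided, Benjamini-Hochberg adjustment over all genes tested. The common biological coefficient of variation was 0.103. SE is the fold change divided by the root of F. Alternatives used DESeq2 1.42.0, limma 3.58.1, other scalings, filters, thinning, a replicate block and each library left out. The fit was tested on simulated data.

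Members and lists were chosen with earlier results of these data known. Named by rule were members past the threshold, the 2 of each role group with the smallest p, 12 phase anchors and, of the other lists, called genes, the 2 with the smallest p and CDKN1A; of the promoters, named members with CHR letters, printed only where the window touched no GENCODE 29 exon of the gene, a limit set after the windows were seen. Others, and E2F windows, were named after their values were seen.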

Additional observations from a re-analysis of the deposited data

How the results depend on the processing

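Of the named genes, 8 were called, and 34 of their 128 values under the 16 alternatives no longer passed. Of the 400 values of the 25 named genes not called, 9 newly passed and 11 changed sign. Genes called, 155 here, became 536 with the DESeq2 Wald test, 1064 with no low-count filter, 393 with the replicate block, 234 with the gene span trend removed (an alternative added after seeing the data, which also tested only the 15210 genes with a span), and with a library left out 102, 61 and 1309 (knockdown a, b, c) or 26, 42 and 42 (control a, b, c). Correlations between same-lettered libraries were 0.0011, 0.11 and -0.03 (a, b, c), beside -0.089 to 0.091 between differently lettered ones. The labels do not say what the letters mark, and so few libraries cannot show whether they pair. With the block, 2 members were called. The split of genes called was 27 higher to 128 lower with TMM, 56 to 102 with library size alone and 45 to 112 with upper-quartile scaling. Members called, 2 here, were 1 with library size alone, 1 with upper-quartile scaling and 3, with CCND1, under the DESeq2 Wald test or no filter. They were 0 without any single control library and 4 without knockdown c, with CCND1 and MKI67 added. E2F3 passed in 13 of 16 alternatives (log2 fold change -0.67 to -0.52) and LIN52 in 9; without control a, b or c, edgeR's adjusted p for E2F3 was 0.0939, 0.0555 and 0.0744. A left-out library moved the G1/S median from -0.0021 (without knockdown b) to 0.0715, the G2/M median from 0.0266 to 0.0934, and the G2/M minus G1/S difference from -0.0018 (without knockdown a) to 0.0764. The groups did not overlap for 9 to 19 members with a library left out, but fewer libraries make overlap rarer. The share over all genes was not counted in those fits, so these counts give no result about the members. The fold changes that turned negative were CCNA2 (-0.0074 without knockdown b, -0.0217 with span removed), CDK1 (-0.0015 thinned, -0.0482 without knockdown a, -0.0247 with span removed), CDC25A (-0.0085 without knockdown b), E2F1 (-0.0156 without knockdown b, -0.0625 without knockdown c, -0.0393 with span removed) and PLK1 (-0.0461 without knockdown b, -0.0136 with span removed). With span removed, the median over all genes also fell, from 0.0195 to -0.0121. The cause of these sign changes was not tested. The left-out libraries gave at most 0.1027 for CCNA2, 0.0748 for CDK1, 0.0551 for CDC25A, 0.1151 for E2F1 and 0.0902 for PLK1. With 3 libraries per group, the SE of single members was at least 0.06 on the log2 scale.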
